A study of Mus musculus with 4 samples.

Results

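Osteopontin, encoded by Spp1, and its receptor Cd44 are described here across the smooth muscle cells, fibroblasts and macrophages of single-cell RNA libraries from the mouse aorta. These are 2 genes of the 32285 listed for each library from angiotensin II (AngII) infused mice and of the 18760 listed for the baseline library. The pair was chosen by its UMI counts in the cell classes of these libraries, with the levels already known. The levels by cell class and library are therefore a description with no test, and the AngII comparisons of these 2 genes are not independent evidence. Cells were placed in classes by unique molecular identifiers (UMIs), the counted tags of single RNA molecules. A smooth muscle cell had at least 5 Myh11 UMIs and 0 of Pdgfra, a fibroblast had at least 1 Pdgfra UMI and at most 2 of Myh11, and a macrophage had at least 10 summed UMIs of C1qa, C1qb and Lyz2 and fewer than 5 of Myh11.

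All mice were males of the strain given as Mef2c-mTmG, studied without treatment or after 3 days of AngII, a vasoconstrictor peptide hormone. The strain joins a Mef2c-driven lineage tag to the mTmG reporter, in which cells that have met the recombinase, and their progeny, switch from a red to a green membrane dye. Live single cells of the aorta were sorted by that lineage and captured with the 10x 3' chemistry. The SHF libraries hold cells of the second heart field lineage, and the CNC library, whose name the labels do not spell out, holds cells sorted as the other origin. The labels give neither the gates, the age of the mice nor how many mice went into a library. Each of SHF_Baseline, SHF_AngII and CNC_AngII is 1 library, and CNC_Baseline was not analysed here. Because there is 1 library per group, no test was possible, and every interval below is a 95% interval for counting error only.

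Osteopontin is a secreted, acidic phosphoprotein of the extracellular matrix, known from bone, where it binds mineral, and from injured or calcifying arteries. It binds integrins through an RGD motif and Cd44, a transmembrane glycoprotein that is best known as the receptor for hyaluronan. In arteries Spp1 is commonly read as a gene of smooth muscle cells that have left the contractile state, and in tissues under repair as a gene of recruited macrophages.

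The stretches of 250 bases before the RefSeq starts of both genes are shown because the factors often named as regulators of Spp1 were also measured in these cells. The Spp1 window is chr5:104434861-104435110 on the plus strand and the Cd44 window is chr2:102901666-102901915 on the minus strand (GRCm38.p6). Capitals mark the matches to the motifs searched on both strands.
Spp1: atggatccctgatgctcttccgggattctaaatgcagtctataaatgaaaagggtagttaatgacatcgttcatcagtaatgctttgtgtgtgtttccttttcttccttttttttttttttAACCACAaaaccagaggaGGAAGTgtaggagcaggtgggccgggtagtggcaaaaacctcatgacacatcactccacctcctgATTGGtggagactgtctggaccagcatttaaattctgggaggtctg
Cd44: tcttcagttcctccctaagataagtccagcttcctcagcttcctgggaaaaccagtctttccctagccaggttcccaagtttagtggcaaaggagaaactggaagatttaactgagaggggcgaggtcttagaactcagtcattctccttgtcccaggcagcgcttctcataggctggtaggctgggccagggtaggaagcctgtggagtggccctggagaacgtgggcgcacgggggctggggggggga
The Spp1 window held the RUNX motif AACCACA from 129 to 123 bases before the start, the ETS motif GGAAGT from 111 to 106 and a CCAAT box on the other strand (read as ATTGG) from 46 to 42. Neither the AP-1 motif TGANTCA nor the E-box CACGTG was in it, and the Cd44 window matched none of the 5 motifs. Of 32851 windows of the same length, 4.40% held the RUNX motif, 19.7% the ETS motif, 33.9% the CCAAT box, 6.75% the AP-1 motif and 6.02% the E-box. RefSeq lists 2 starts for Spp1, of which the first is shown. A match describes these letters and not a bound factor. In the Ensembl annotation of GRCm38, Spp1 (ENSMUSG00000029304.14) spans chr5:104435118-104441050. Of its 1648 exon bases, 309 also lie in Gm42793, an unverified gene model on the same strand that is listed in none of the libraries. That shared stretch ends 4678 bases before the 3' end of Spp1, the end that this chemistry reads. Cd44 (ENSMUSG00000005087.17) spans chr2:102811141-102901665 and shares no exon base with another gene of its strand.

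After filtering, 8374 cells of SHF_Baseline, 9299 of SHF_AngII and 10194 of CNC_AngII remained, with medians of 10316, 13325 and 12610 UMIs. Between 29 and 34 barcodes were shared by any pair of libraries. Of the gene names of SHF_Baseline, 17620 matched the longer list of the AngII libraries and 516 more matched through a synonym, so ratios against baseline compare lists whose annotation may differ. Smooth muscle cells numbered 2259, 4649 and 6385 in that order, fibroblasts 3939, 2640 and 842, and macrophages 8, 13 and 1764. Markers that the class rules did not use were high in the first pair of classes: Acta2, Tagln, Cnn1 and Lmod1 summed to between 53433 and 61374 CPM (UMIs per 1000000 UMIs of the class) in smooth muscle cells, and Col1a1, Dcn, Lum and Dpt to between 10017 and 22356 CPM in fibroblasts. C1qc, Adgre1, Csf1r and Cd68 summed to 6309 CPM in the macrophages of CNC_AngII, with the fibroblast markers at 96.8 CPM. The 8 macrophages of SHF_Baseline also carried 10399 CPM of the fibroblast markers, and the 13 of SHF_AngII carried 6848 CPM of the smooth muscle markers, so these few cells are given by number only and enter no comparison. In SHF_Baseline 2094 cells, in SHF_AngII 1962 and in CNC_AngII 1181 met no class.

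Spp1 was close to absent from baseline smooth muscle cells and was read in every other class with 50 or more cells. Baseline smooth muscle cells of the SHF lineage held 16 Spp1 UMIs in 10 of 2259 cells, a level of 0.542 CPM (0.310 to 0.879), and 7 of the 16 UMIs came from 1 cell. After AngII, SHF smooth muscle cells held 9934 UMIs, or 143 CPM (140 to 146), and CNC smooth muscle cells 25890 UMIs, or 270.0 CPM (267 to 273). The AngII level in SHF smooth muscle cells was 264-fold the baseline level, a log2 ratio of 8.05 (7.35 to 8.85). All other log2 ratios below have 1 CPM added to both sides, which gives 6.55 here, and 5.80 in cells thinned to 5000 UMIs. Spp1 was thus among the 8.76% of 6999 genes that were at least 1.5-fold higher in SHF_AngII than in SHF_Baseline smooth muscle cells, against 15.6% that were that much lower. CNC smooth muscle cells stood above SHF smooth muscle cells under AngII by a log2 ratio of 0.91 (0.88 to 0.95), where 0.938% of 6826 genes were at least 1.5-fold higher. Single cells weigh on that ratio: 1 SHF cell held 1871 UMIs, 18.8% of the class total, and without the highest cell of each library the ratio was 1.15.

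Fibroblasts held Spp1 already at baseline. Their levels were 59.97 CPM (57.5 to 62.5) in SHF_Baseline, 250.3 CPM (246 to 255) in SHF_AngII and 561 CPM (547 to 575) in CNC_AngII. The AngII to baseline log2 ratio in SHF fibroblasts was 2.04 (1.996 to 2.13), in a comparison where 10.5% of 7692 genes were called higher and 27.6% lower. The highest baseline fibroblast, with 723 UMIs, carried 31.8% of the class total, and without the highest cells the ratio was 2.36. It was 3.11 in cells with 2000 or more genes and mitochondrial UMIs of 5% or less, 2.76 as the mean of the per-cell CPM and 2.71 in cells thinned to 5000 UMIs. CNC fibroblasts exceeded SHF fibroblasts by 1.16 (1.12 to 1.21), where 1.24% of 7280 genes were called higher and 1.06% lower. Fibroblasts lay above smooth muscle cells in each library, by log2 ratios of 5.31 at baseline, 0.80 in SHF_AngII and 1.05 in CNC_AngII.

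Macrophages of CNC_AngII read 378 CPM of Spp1 (370 to 386), a log2 ratio of 0.48 (0.45 to 0.52) over the smooth muscle cells of the same library. That order turned with the cell filter: in cells with 2000 or more genes and mitochondrial UMIs of 5% or less the ratio was −0.13, whereas the mean of the per-cell CPM gave 1.29. The 8 baseline macrophages held 0 Spp1 UMIs, which allows a share of cells with a UMI of up to 37.5%, and the 13 SHF_AngII macrophages held 92. From high to low, the classes of 50 cells or more read CNC fibroblasts, CNC macrophages, CNC smooth muscle cells, SHF_AngII fibroblasts, SHF_AngII smooth muscle cells, SHF_Baseline fibroblasts and SHF_Baseline smooth muscle cells. The intervals of neighbours in this order were apart, but they cover counting error only and leave out the uneven spread of Spp1 over cells. In cells thinned to 5000 UMIs the order of 1 pair turned. SHF_AngII fibroblasts then read 200.3 CPM and CNC smooth muscle cells 180.4 CPM. How far libraries of 1 group would differ is unknown.

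**Figure D1:**
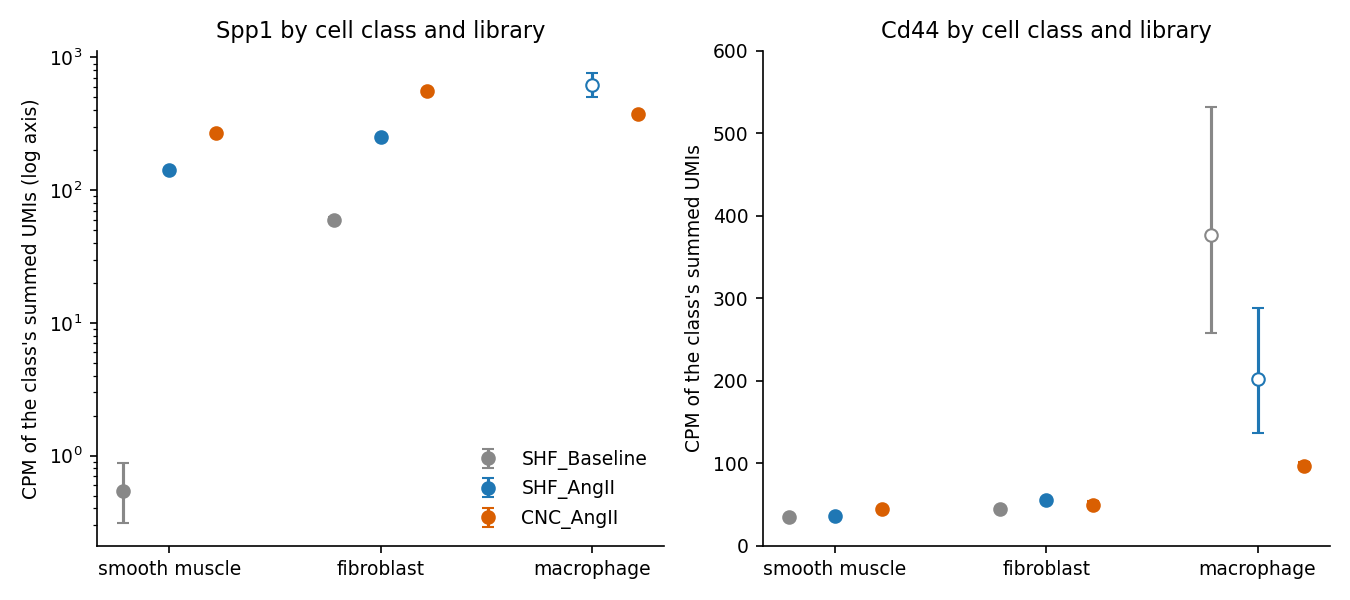
Level of Spp1 (left, log axis) and Cd44 (right, linear axis) in CPM of the summed UMIs of each class, by library; bars are exact 95% Poisson intervals, and open symbols mark the macrophages of SHF_Baseline (8 cells) and SHF_AngII (13 cells). Among the filled symbols, Spp1 runs from 0.542 CPM in baseline smooth muscle cells to 561 CPM in CNC_AngII fibroblasts, Cd44 in smooth muscle cells and fibroblasts stays between 34.4 and 55.1 CPM, and the baseline macrophages, with 0 Spp1 UMIs, have no point at the left.

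By share of the Spp1 UMIs of a library, the main source changed with the sort. Fibroblasts gave 44.8% and cells in no class 50.9% of the Spp1 UMIs in SHF_Baseline, with 0.315% from smooth muscle cells. In SHF_AngII fibroblasts gave 41.3% and smooth muscle cells 36.5%. In CNC_AngII smooth muscle cells gave 55.6%, macrophages 16.9% and fibroblasts 13.8%. These shares move with how many cells of each class the sort delivered.

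RNA carried between droplets can put UMIs into cells that do not make them, so its size was read from genes of the neighbouring classes. In CNC_AngII, C1qa, C1qb and C1qc stood in smooth muscle cells at 1.05% of their macrophage level. Carried at that ratio, macrophage Spp1 would amount to 3.96 CPM, or 1.47% of the Spp1 in those smooth muscle cells, and macrophage Cd44 to 1.01 CPM, or 2.28% of theirs. Cnn1 and Lmod1 stood in fibroblasts at 1.97% (SHF_AngII) and 2.43% (CNC_AngII) of their smooth muscle level, which at that ratio carries 1.13% and 1.17% of the fibroblast Spp1. The reverse direction, from fibroblasts into smooth muscle cells, was not computed. Summed fibroblast markers stood in smooth muscle cells at 1364 CPM in SHF_AngII and 1170 CPM in CNC_AngII, against 12055 and 10017 CPM in fibroblasts. How much Spp1 fibroblast RNA puts into smooth muscle cells was not tested. A gate for endothelial cells (Pecam1 and Cdh5 of at least 5 UMIs) was to serve as a class without Spp1, but it held 75, 37 and 30 cells and carried 10247, 5391 and 1338 CPM of fibroblast markers. Spp1 was found in 8% of the gated cells at baseline (median 8452 UMIs), 8.11% in SHF_AngII (9206 UMIs) and 16.7% in CNC_AngII (5558 UMIs).

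Cells on either side of the class limits differed in Spp1, with no common direction. In CNC_AngII, the 136 smooth muscle cells with 5 or 6 Myh11 UMIs read 1767 CPM of Spp1 and 64.6 CPM of Cd44, and the 91 cells left out at 3 or 4 Myh11 UMIs read 626 and 100.2 CPM. In SHF_AngII, 118 such cells inside read 259 CPM of Spp1 and 77 outside read 47.4 CPM. For fibroblasts, cells with 1 Pdgfra UMI read 141 CPM of Spp1 against 318 CPM at 0 Pdgfra in SHF_AngII, 788 against 462 CPM in CNC_AngII and 64.1 against 246 CPM in SHF_Baseline. At the macrophage limit in CNC_AngII, 8 cells inside read 806 CPM and 12 outside 1351 CPM. The smooth muscle cells just inside their limit held more Spp1 than the class as a whole in both AngII libraries.

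Spp1 was not spread over cells. To compare cells of unequal depth, each was thinned at random to 5000 UMIs, which left out 45 smooth muscle cells of SHF_Baseline, 59 of SHF_AngII and 82 of CNC_AngII, 717 (18.2%), 136 and 73 fibroblasts in that order, and 71 CNC_AngII macrophages. A Spp1 UMI was then found in 0.181% of baseline smooth muscle cells (0.0493 to 0.462), 5.62% (4.97 to 6.33) in SHF_AngII and 13.6% (12.8 to 14.5) in CNC_AngII. Without thinning the shares were 0.443%, 9.83% and 21.3%. Fibroblasts gave 3.14% (2.56 to 3.796), 8.99% (7.89 to 10.2) and 14.6% (12.2 to 17.3) thinned, against 4.39%, 13.9% and 20.8% unthinned. Of the CNC_AngII macrophages 23.9% (21.9 to 26.0) had a Spp1 UMI thinned and 30.7% unthinned. In the endothelial gate, 1 of 31 thinned cells of SHF_AngII and 4 of 20 of CNC_AngII had one (20%, 5.73 to 43.7), so the CNC shares for smooth muscle cells and fibroblasts lie at or below that of the gate and are not read as a share of expressing cells.

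The UMIs per cell show how uneven Spp1 was. Spread evenly at the same mean, Spp1 would have been found in 33.0% of SHF_AngII and 59.4% of CNC_AngII smooth muscle cells, 63.3% and 92.5% of fibroblasts and 88.5% of CNC_AngII macrophages. The highest 1% of cells held 74.9% of the thinned Spp1 UMIs of SHF_AngII smooth muscle cells and 47.7% of those in CNC_AngII. In fibroblasts the highest 1% held 82.4% at baseline, 69.7% in SHF_AngII and 59.7% in CNC_AngII, and in CNC_AngII macrophages 32.1%. The variance to mean ratio of Spp1 was 85.3 and 33.5 in SHF_AngII and CNC_AngII smooth muscle cells, 90.6 and 120.4 in fibroblasts and 36.2 in macrophages. Cells with 10 or more Spp1 UMIs of 5000 numbered 37 and 153 in smooth muscle, 49 and 27 in fibroblasts, and 104 in macrophages. Cells with 3 or more made up 2.33% of SHF_AngII and 6.03% of CNC_AngII smooth muscle cells, 4.31% and 7.02% of fibroblasts and 12.7% of macrophages, and 0 of 2214 baseline smooth muscle cells reached 3.

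**Figure D2:**
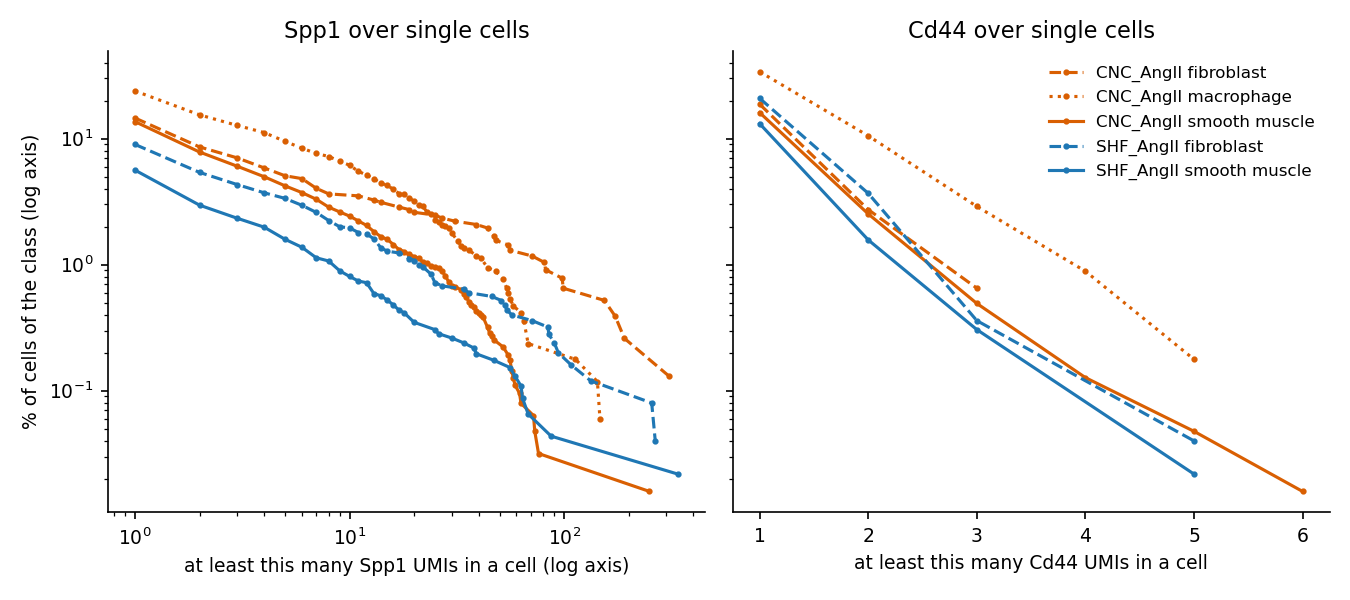
Percent of cells of a class (log axis) with at least the number of Spp1 UMIs (left, log axis) or Cd44 UMIs (right) given on the x axis, each cell thinned to 5000 UMIs; blue is SHF_AngII and orange CNC_AngII, with solid lines for smooth muscle cells, dashed for fibroblasts and dotted for macrophages. Spp1 lines reach past 100 UMIs per cell in every class shown, whereas no Cd44 line passes 6 UMIs.

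Within smooth muscle, Spp1 was set against Igfbp2 and Tnnt2, a pair of genes that vary among these cells, and against a cycling list (Mki67, Top2a, Birc5, Ccnb1 and Cdk1). Cells with an Igfbp2 UMI, which encodes a binding protein of insulin-like growth factors, read less Spp1 than those without, 132 against 303 CPM in CNC_AngII, with a Spp1 UMI in 12.5% against 16.6% of cells. In SHF_AngII the levels were 47.0 and 128 CPM (91.9 without the highest cell), but the shares of cells were 5.61% and 5.64%. Tnnt2, which encodes cardiac troponin T, gave no common direction: 51.8 CPM of Spp1 with and 103 CPM without it in SHF_AngII, and 185 and 179.6 CPM in CNC_AngII. Cycling smooth muscle cells, with 2 or more UMIs of the list, held more Spp1: 457 against 77.2 CPM in SHF_AngII (35 cycling cells) and 611 against 169 CPM in CNC_AngII (160 cells). Their Spp1 shares were 28.6% against 5.45% and 36.9% against 13.02%. Cycling cells were also deeper before thinning, with medians of 29385 against 13405 UMIs and 29201 against 13383 UMIs. Among CNC_AngII cells of 15000 to 30000 UMIs, 28.9% (19.5 to 39.9) of 83 cycling cells and 22.1% (20.4 to 23.9) of the others had a Spp1 UMI, and the level turned, with 263 against 335 CPM. For SHF_AngII, 3 of 12 cycling cells of that depth had one, against 9.41% of the others.

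Among AngII fibroblasts, Spp1 was lower in cells with a UMI of Cthrc1, a secreted protein of collagen-making fibroblasts after injury. The levels were 106 CPM with and 301 CPM without Cthrc1 in SHF_AngII, and 196 and 824 CPM in CNC_AngII. Baseline fibroblasts went the other way, with 44.6 CPM (34.0 to 57.4) with and 28.3 CPM (25.7 to 31.2) without Cthrc1, and a Spp1 UMI in 3.35% and 3.12% of cells. The Cthrc1-positive cells were the deeper ones before thinning (median 19762 against 12836 UMIs in SHF_AngII). Cells with a UMI of Pi16, a marker of adventitial fibroblasts, also read less Spp1 than those without: 20.7 against 69.6 CPM at baseline, 174 against 301 CPM in SHF_AngII and 454 against 733 CPM in CNC_AngII. Cycling AngII fibroblasts read less Spp1 than the others, with 63.0 against 224 CPM in SHF_AngII and 255 against 559 CPM in CNC_AngII. Among cells of 15000 to 30000 UMIs the levels were 80.4 against 287 CPM and 76.4 against 1181 CPM. Their shares with a Spp1 UMI lay closer together, at 8.70% against 9.04% and 16.2% against 14.3%. At baseline the level went the other way, with 244 CPM in 9 cycling fibroblasts, 3 of which had a Spp1 UMI, and 29.1 CPM in the others.

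In CNC_AngII macrophages, Spp1 divided along the markers of tissue-resident and recruited cells. Lyve1, a hyaluronan receptor of resident macrophages of the vessel wall, had a UMI in 1251 thinned cells, which read 156 CPM of Spp1. The 442 cells without it read 1214 CPM, and a Spp1 UMI was found in 14.7% (12.8 to 16.8) against 49.8% (45.0 to 54.5) of them. Ccr2, the chemokine receptor of blood monocytes, gave the opposite picture: 1055 CPM in 364 cells with a UMI and 261 CPM in 1329 without, with a Spp1 UMI in 49.7% and 16.8%. Depth did not rise with Spp1 here, with medians of 11840 UMIs for Lyve1-positive and 10104 for Lyve1-negative cells. Cd44 followed the same division, with 74.3 CPM and a UMI in 28.7% of the Lyve1-positive cells against 160.2 CPM and 48.6% of the Lyve1-negative ones, and 161 against 79.2 CPM by Ccr2. Cycling macrophages (548 cells) and the others read 449 and 424 CPM of Spp1.

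**Figure D3:**
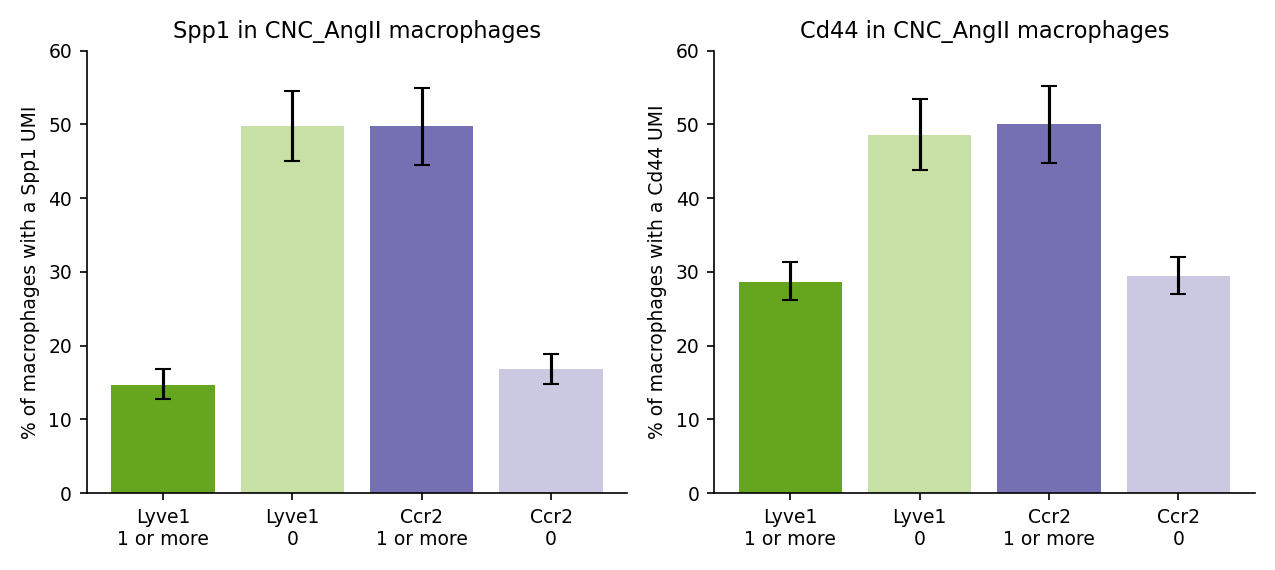
Percent of CNC_AngII macrophages, thinned to 5000 UMIs, with a Spp1 UMI (left) or a Cd44 UMI (right), by whether the cell had a UMI of Lyve1 or of Ccr2; bars start at 0 and error bars are exact 95% binomial intervals. Both genes are found more often without Lyve1 (49.8% and 48.6%) than with it (14.7% and 28.7%), and more often with Ccr2 than without.

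The genes that went with Spp1 were read by setting thinned cells with 3 or more Spp1 UMIs against cells with 0 and calling a gene at 1.5-fold with a mean of at least 10 CPM. Spp1 chose the cells, so the counts are a description. In SHF_AngII smooth muscle (107 against 4332 cells) 9.42% of 6817 genes were called higher and 10.3% lower, and in CNC_AngII (380 against 5444 cells) 3.72% of 6802 higher and 4.68% lower. Of 12 listed genes of modulated smooth muscle, 9 of 12 measured were higher and 0 lower in SHF_AngII (median log2 ratio 1.21), and 5 of 11 higher and 1 lower in CNC_AngII (0.56), against medians over all genes of −0.01 and −0.03. Mgp, the matrix Gla protein that binds calcium and opposes calcification, went from 6490 to 33047 CPM (2.35) and from 6097 to 36303 CPM (2.57). Timp1, an inhibitor of matrix metalloproteinases, had ratios of 2.10 and 1.93, and Tnfrsf11b, the decoy receptor osteoprotegerin, 2.19 and 2.09. Of 15 contractile genes, 0 were higher and 6 lower in SHF_AngII (median −0.53), and 0 higher and 8 lower in CNC_AngII (−0.64). The intermediate filament gene Des had log2 ratios of −1.26 and −1.55, calponin (Cnn1) −0.66 and −0.87 and smooth muscle actin (Acta2) −0.62 and −0.69. All 4 measured cycling genes in SHF_AngII and all 5 in CNC_AngII were higher, with medians of 3.21 and 2.25. The limit of 10 CPM on the mean of both groups largely fixed that count. At 0 Spp1 UMIs, Mki67, Top2a, Birc5 and Cdk1 stood at 1.385 to 2.49 CPM in SHF_AngII and 5.84 to 7.605 CPM in CNC_AngII. They were thus measured only through the Spp1-rich cells.

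Depth moved with these lists as well, since cells with 3 or more Spp1 UMIs had medians of 22707 UMIs in SHF_AngII and 20448 in CNC_AngII against 13122 and 12942 in cells with 0. Among cells of 15000 to 30000 UMIs (68 against 1502 and 259 against 1815 cells), the modulated list kept its direction, with 8 of 12 and 5 of 10 genes higher and 0 lower (medians 0.83 and 0.77), where 10.6% and 2.74% of all genes were called higher. The contractile list shrank to 2 and 4 of 15 genes lower (medians −0.29 and −0.46), where 10.7% and 5.20% of all genes were called lower. Of the cycling list, 1 gene was measured in SHF_AngII at that depth and was higher (2.35), and 3 of 4 were higher in CNC_AngII, where the median fell to 0.77. The same limit of 10 CPM on the mean chose the genes measured here. Markers of another class moved too: fibroblast markers were at 2120 against 1254 CPM in SHF_AngII and 1485 against 1052 CPM in CNC_AngII, and their part in these counts was not tested. Macrophage markers were at 0 against 1.247 CPM in SHF_AngII and at 52.1 against 45.4 CPM in CNC_AngII.

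Sox9, the transcription factor of cartilage, was higher in the Spp1-rich smooth muscle cells of both libraries, at 46.7 against 22.1 CPM (log2 ratio 1.05) and 62.1 against 22.3 CPM (1.44). Of the list of cartilage and calcification genes, 4 of 6 measured genes were higher in SHF_AngII and 3 of 3 in CNC_AngII, where 9.42% and 3.72% of all genes were. In SHF_AngII this count rested on few cells: of the 107, only 3 held Chad, 7 Comp and 6 Cytl1, all of them genes of the cartilage matrix or its cells. At 0 Spp1 UMIs these genes stood at 0.231, 8.31 and 2.355 CPM, so they were measured only through the Spp1-rich cells. In CNC_AngII they stayed under the mean of 10 CPM and out of the count, with Comp at 7.895 against 10.9 CPM. Within 15000 to 30000 UMIs, 4 of 6 and 2 of 3 were higher, where 10.6% and 2.74% of all genes were. The list medians were 1.80 and 0.95 at that depth, against 3.12 and 0.72 over all thinned cells.

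**Figure D4:**
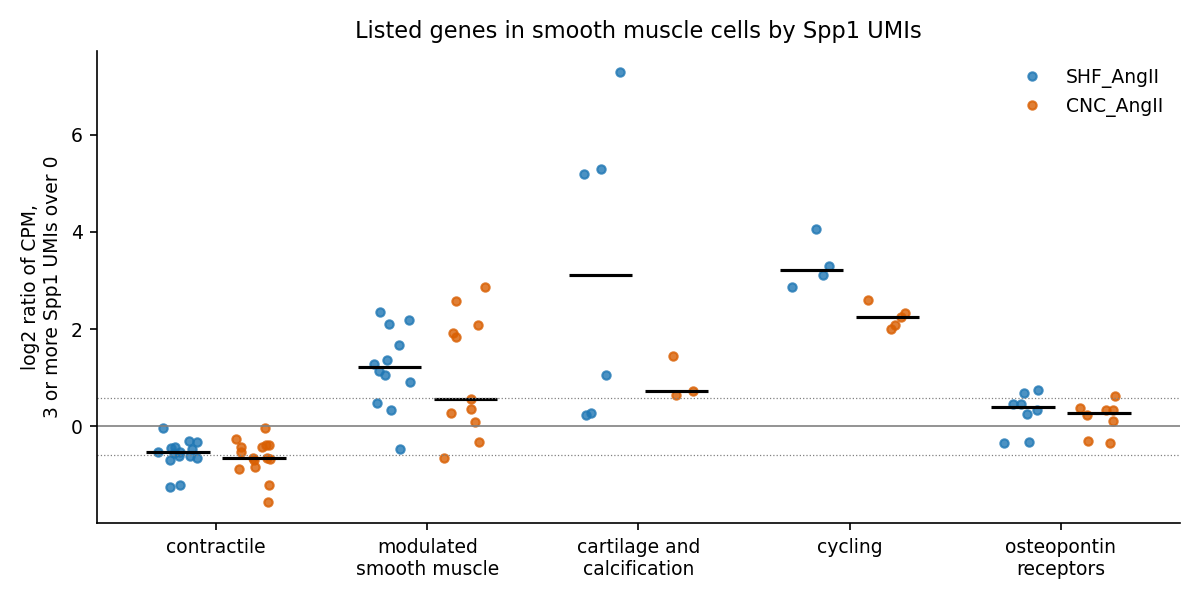
Log2 ratio of CPM between thinned smooth muscle cells with 3 or more Spp1 UMIs and those with 0, for each measured gene of 5 lists (points, spread sideways at random for legibility), in SHF_AngII (blue) and CNC_AngII (orange); black bars are list medians and dotted lines the 1.5-fold limits. Contractile genes lie at or below 0 (medians −0.53 and −0.64), cycling genes well above it (3.21 and 2.25), and the 3 highest cartilage points of SHF_AngII (Chad, Comp and Cytl1) rest on at most 7 cells each. These 3 points, and Mki67, Top2a, Birc5 and Cdk1 in both libraries, passed the mean of 10 CPM only through the Spp1-rich cells.

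Spp1-rich fibroblasts were set against the others in the same way, an addition made after the smooth muscle values were seen. In SHF_AngII (108 against 2279 cells), 11.6% of 7188 genes were called higher and 13.9% lower; in CNC_AngII (54 against 657 cells), 17.9% of 7260 in each direction; and in SHF_Baseline (31 against 3121 cells), 19.3% of 7855 higher and 20.3% lower. Of the measured cartilage genes, 4 of 5, 6 of 7 and 5 of 7 were called higher, in that order, with 1 lower in each. Single cells weigh on the AngII counts. In SHF_AngII, Comp was found in 16.7% of the Spp1-rich cells and 16.5% of the others, and its level of 246 against 126.5 CPM was 131 CPM without the highest cell. In CNC_AngII, Chad was found in 2 of the 54 cells, and Bmp2, a bone morphogenetic protein, went from 77.8 to 15.1 CPM without the highest cell, against 5.78 CPM in the others. At baseline the median of the list was 3.47, and Chad was found in 13, Comp in 14 and Cytl1 in 18 of the 31 cells, against 1.12%, 8.27% and 12.6% of the 3121 others. Sox9 stood at 213 against 67.9 CPM there. Tnfrsf11b had log2 ratios of 3.55 at baseline, 2.79 in SHF_AngII and 1.94 in CNC_AngII. Of the listed regulators of Spp1, 2 of 7 measured were higher in SHF_AngII, 2 of 7 in CNC_AngII and 2 of 8 at baseline, with 1 lower at baseline, and the medians were −0.05, 0.12 and −0.15. Ets1, singled out after its values were seen, was among the higher ones in each library. At baseline it stood at 38.7 against 22.4 CPM (0.76), with few UMIs in the 31 Spp1-rich cells. The levels were 38.9 against 13.3 CPM (1.49) in SHF_AngII and 40.7 against 12.8 CPM (1.60) in CNC_AngII. Cycling genes did not join Spp1 in AngII fibroblasts: 2 of 5 were lower in SHF_AngII and 4 of 5 in CNC_AngII, with 0 higher. Smooth muscle markers moved with Spp1, at 6352 against 3853 CPM in SHF_AngII and 4233 against 3668 CPM in CNC_AngII, and their part was not tested.

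In CNC_AngII macrophages, 215 cells with 3 or more Spp1 UMIs were set against 1289 with 0, where 5.56% of 7160 genes were called higher and 10.4% lower. All 5 measured genes of the monocyte-derived list were higher. Chil3, a chitinase-like protein, was found in 47 of the 215 cells against 10 of the 1289, and Ccr2 stood at 255 against 91.2 CPM (log2 ratio 1.47). With 6.05 CPM in the cells with 0 Spp1 UMIs, Chil3 was measured only through the Spp1-rich cells. Of 8 resident genes 7 were lower and 0 higher: Lyve1 at 313 against 1218 CPM, the scavenger receptor Cd163 at 179 against 561 CPM, and Timd4, a receptor for phosphatidylserine, in 0 of 215 against 297 of 1289 cells, where the count of 0 allows a share of up to 1.40%. Of the 9 measured genes of lipid-associated macrophages, 3 were higher (Arg1 2.89, Fabp5 1.69 and Cd9 1.003) and 0 lower. Trem2, the receptor that defines that state in many tissues, had a ratio of 0.08.

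By rank of correlation over single thinned cells, the genes most like Spp1 in smooth muscle (4590 and 6303 cells, 2268 genes compared) were Mgp (Pearson r 0.23 in SHF_AngII and 0.35 in CNC_AngII), Timp1, Fxyd5, Aqp1, Nupr1, Fbln2, S100a4, Fn1, Eln and Ctsh. The tenth, Ctsh, had r of 0.13 and 0.14. In CNC_AngII macrophages (1693 cells) they were Tmsb10 (0.30), Cd52, Fn1, Aprt, Ccr2 (0.28), Basp1, S100a4, Eef1a1, Ckb and S100a11. In fibroblasts, a list added later, Tnfrsf11b (0.36 in SHF_AngII and 0.34 in CNC_AngII) led, and S100a4, Ltbp2, Serpine2, Mgp, Ccn2, Col15a1, Tgfb1 and Smoc1 were among those that followed. For Cd44 in smooth muscle no gene had a lower r above 0.09, which is no finding in counts this sparse. The cells of a class share a library, and their depth before thinning differs, so these are descriptions.

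Several factors named as regulators of Spp1 were lower in SHF_AngII than in SHF_Baseline. With 1 library per group, AngII and the preparation of the library cannot be told apart here. Of the list (Runx2, Sox9, Ets1, the AP-1 members Fos, Fosl1, Fosl2, Jun and Junb, the Krüppel-like factors Klf4 and Klf5, and Srf and Myocd), 5 of 9 measured in SHF smooth muscle were lower than at baseline, where 15.6% of all genes were: Fosl2, Jun, Junb, Klf4 and Srf. None of the 9 was higher, where 8.76% of all genes were, a share at which 0 of 9 is near the background. In SHF fibroblasts all 8 measured were lower and 0 higher, where 27.6% of all genes were lower and 10.5% higher, among them Fos at 1598 against 3180 CPM and Jun at 1312 against 2312 CPM. The medians were −0.61 and −0.84, against −0.10 and −0.21 over all genes. TMM scaling, which shifts the ratios of these genes against baseline by about 0.18 in smooth muscle cells and 0.20 in fibroblasts, left 4 of 9 and 6 of 8 lower, with Klf4 among those no longer called. The shares over all genes were not computed under TMM scaling, so these counts have no background of their own. Between CNC_AngII and SHF_AngII, 0 of 9 were called in smooth muscle and 0 of 7 in fibroblasts, where 0.938% and 1.24% of all genes were called higher and 1.01% and 1.06% lower, so a count of 0 is near that background.

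Cd44, the receptor, was read in every class, at a low level in smooth muscle cells and fibroblasts. In smooth muscle cells it stood at 34.4 CPM (32.3 to 36.6) in SHF_Baseline, 35.97 CPM (34.6 to 37.4) in SHF_AngII and 44.4 CPM (43.1 to 45.7) in CNC_AngII. In fibroblasts it stood at 45.0 CPM (42.9 to 47.1), 55.1 CPM (52.9 to 57.3) and 49.7 CPM (45.7 to 53.9). Macrophages of CNC_AngII were highest at 96.6 CPM (92.4 to 100.9), a log2 ratio of 1.11 (1.05 to 1.20) over smooth muscle cells of that library. The few macrophages of the other libraries held 32 UMIs in 8 cells and 30 UMIs in 13 cells. In this order of levels, the intervals of baseline fibroblasts and CNC_AngII smooth muscle cells overlapped, as did those of CNC_AngII fibroblasts with both of its neighbours and those of SHF_AngII and SHF_Baseline smooth muscle cells.

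The AngII to baseline log2 ratio of Cd44 was 0.06 (−0.04 to 0.17) in SHF smooth muscle cells and 0.29 (0.20 to 0.38) in SHF fibroblasts, and neither reached 1.5-fold. The ratio in smooth muscle turned to −0.07 in thinned cells and to −0.35 with the stricter cell filter. CNC over SHF under AngII gave 0.30 (0.23 to 0.37) in smooth muscle cells and −0.15 (−0.28 to −0.02) in fibroblasts, again under 1.5-fold. After thinning, a Cd44 UMI was found in 13.6%, 13.1% and 16.1% of smooth muscle cells of SHF_Baseline, SHF_AngII and CNC_AngII (29.8%, 31.8% and 36.4% unthinned). The CNC share was 1.22-fold the SHF_AngII share, and 1.07-fold with another random draw. Shares in fibroblasts were 17.9%, 20.9% and 18.7% thinned (27.2%, 46.4% and 35.6% unthinned), and 33.9% (31.7 to 36.2) of CNC_AngII macrophages had a Cd44 UMI thinned (57.1% unthinned). In the endothelial gate, 10.96% at baseline, 9.68% in SHF_AngII and 0 of 20 cells in CNC_AngII had one thinned, the last of which allows up to 15%.

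Cd44 was not gathered in few cells as Spp1 was. Its means were 0.15 to 0.48 UMIs per thinned cell in the 5 AngII groups below. Counts this sparse cannot tell an even spread from a moderately uneven one. The thinned shares lay close to those of an even spread at the same mean, which were 13.96% in SHF_AngII and 17.5% in CNC_AngII smooth muscle cells, 22.1% and 19.8% in fibroblasts and 38.4% in CNC_AngII macrophages. Its variance to mean ratio in those 5 groups ran from 1.13 to 1.33, where 1 is even counting. The highest 1% of cells held between 8.43% and 15.7% of the Cd44 UMIs, and no cell of a class held more than 23 before thinning. In subsets, Cd44 was higher in cycling than in other smooth muscle cells (62.9 against 29.8 CPM in SHF_AngII and 91.3 against 37.2 CPM in CNC_AngII), in cycling fibroblasts (70.1 against 46.4 CPM and 59.1 against 41.9 CPM) and in cycling macrophages (109.9 against 90.5 CPM). The intervals overlapped in SHF_AngII smooth muscle cells, CNC_AngII fibroblasts and macrophages. Baseline fibroblasts went the other way, with 22.2 CPM in 9 cycling cells and 43.7 CPM in the others. Within 15000 to 30000 UMIs, 30.1% (20.5 to 41.2) of cycling and 19.7% (18.0 to 21.4) of other CNC_AngII smooth muscle cells had a Cd44 UMI, with intervals that overlap at their ends. At that depth the shares were 28.35% and 22.1% in SHF_AngII fibroblasts and 25.45% and 23.0% in CNC_AngII fibroblasts. Macrophages gave 38.95% and 27.9%, and these intervals overlapped as well. Pi16-negative fibroblasts read more Cd44 than Pi16-positive ones in each library, at 58.7 against 40.3, 59.7 against 47.4 and 56.0 against 40.7 CPM, as they did for Spp1.

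Of the 11 genes listed as receptors of osteopontin (Cd44 and the integrin subunits Itgav, Itgb1, Itgb3, Itgb5, Itgb6, Itgb7, Itga4, Itga5, Itga8 and Itga9), 8 were measured in smooth muscle cells and 7 in fibroblasts. Between CNC_AngII and SHF_AngII, 0 of 8 and 0 of 7 passed 1.5-fold, near the background of 0.938% and 1.24% of all genes called higher and 1.01% and 1.06% lower. From baseline to AngII, Itga5, the fibronectin receptor subunit, was higher in both classes, from 111 to 259.8 CPM in SHF smooth muscle cells (log2 ratio 1.22) and from 20.8 to 51.5 CPM in SHF fibroblasts (1.27). Itga8 was lower in fibroblasts, from 46.0 to 29.6 CPM (−0.62), a call that TMM scaling ends, and the others were not called. Of the SIBLING proteins, the family of mineral-binding matrix proteins to which osteopontin belongs, Spp1 alone reached 10 CPM in smooth muscle cells or fibroblasts. Mmp3, a matrix metalloproteinase that cleaves osteopontin, rose with AngII from 7.95 to 30.1 CPM in SHF smooth muscle cells and from 254 to 679.6 CPM in SHF fibroblasts. It was lower in CNC_AngII, at 14.6 CPM in smooth muscle cells (−0.998) and 429 CPM in fibroblasts (−0.66), the reverse of Spp1. In the list of hyaluronan genes and other Cd44 ligands, Cemip, a hyaluronan-degrading protein, went from 0.132 to 24.8 CPM in SHF fibroblasts with AngII. Cd74, a Cd44 partner of antigen-presenting cells, was higher in CNC_AngII smooth muscle cells (35.1 against 3.57 CPM) together with F13a1, a gene of macrophages (21.0 against 1.40 CPM). The summed macrophage markers stood at 67.0 and 1.08 CPM in the same cells, and their part in the Cd74 difference was not tested.

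Spp1 and Cd44 in the same cells were compared by the share of thinned cells with a Cd44 UMI at 0 and at 3 or more Spp1 UMIs. The shares were 13.1% and 18.7% in SHF_AngII smooth muscle cells, 15.2% and 21.3% in CNC_AngII smooth muscle cells, 20.5% and 32.4% in SHF_AngII fibroblasts, 17.1% and 27.8% in CNC_AngII fibroblasts, and 31.0% and 45.1% in CNC_AngII macrophages. In all 5 the Spp1-rich cells were the higher group, and the intervals were apart in CNC_AngII smooth muscle cells (14.2 to 16.2 and 17.3 to 25.8), SHF_AngII fibroblasts (18.8 to 22.2 and 23.7 to 42.1) and CNC_AngII macrophages (28.5 to 33.6 and 38.3 to 52.0). Baseline fibroblasts gave 17.9% and 19.4%. Within 15000 to 30000 UMIs, the gap in smooth muscle was gone in CNC_AngII, with 19.3% and 19.3%, and small in SHF_AngII, with 15.2% and 16.2%. At that depth SHF_AngII fibroblasts read 23.0% (20.5 to 25.7) and 34.9% (23.3 to 48.0), CNC_AngII fibroblasts 22.1% and 32.1%, and macrophages 32.8% and 43.5%, on 63, 28 and 23 Spp1-rich cells. The intervals overlapped in all 3. In SHF_AngII fibroblasts 6 of the 7 measured receptors were higher in the Spp1-rich cells and 0 lower (median 0.86), where 11.6% of all genes were called higher, namely Cd44, Itgav, Itgb5, Itga5, Itga8 and Itga9. In CNC_AngII fibroblasts 3 of 7 were higher (Cd44, Itgb5 and Itga5), where 17.9% of all genes were, and at baseline 0 of 7, where 19.3% were. Smooth muscle gave 2 of 8 (Cd44 and Itgav) in SHF_AngII and 1 of 8 (Cd44) in CNC_AngII, where 9.42% and 3.72% of all genes were called higher. Within 15000 to 30000 UMIs these counts were 2 of 8 and 0 of 8, where 10.6% and 2.74% were. Cd44 was no longer called at that depth, at 44.1 against 35.8 CPM in SHF_AngII and 51.0 against 45.5 CPM in CNC_AngII. In CNC_AngII macrophages Itgb5 was higher (142 against 57.9 CPM), Itga9 lower (11.2 against 24.7 CPM), and Cd44 had a log2 ratio of 0.58, just under the call.

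**Figure D5:**
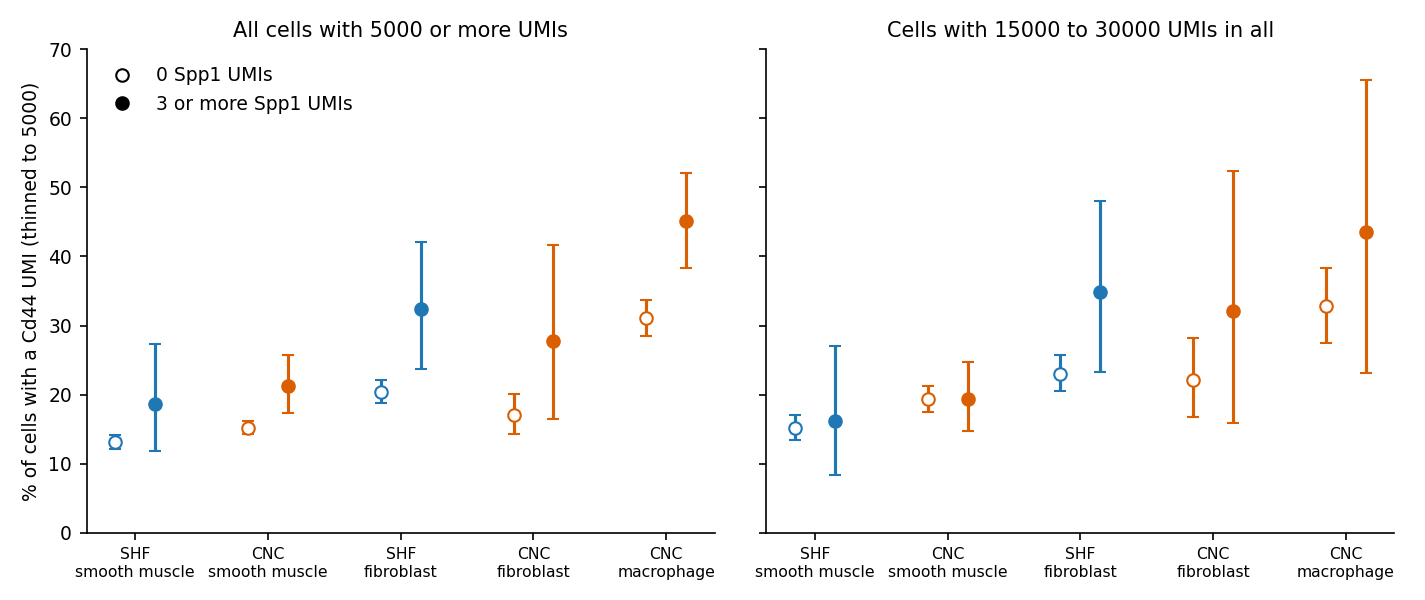
Percent of cells with a Cd44 UMI after thinning to 5000 UMIs, for cells with 0 (open) and with 3 or more (filled) Spp1 UMIs, in SHF_AngII (blue) and CNC_AngII (orange); left, all thinned cells, and right, those with 15000 to 30000 UMIs before thinning. Error bars are exact 95% binomial intervals, and the smooth muscle pairs of CNC_AngII, 15.2% and 21.3% at the left, meet at 19.3% at the right.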

How the data were processed

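Single-cell 3' libraries (10x v3) were measured for SHF_Baseline, SHF_AngII and CNC_AngII. The authors deposited raw UMI counts per gene and cell; the submitters' processing notes name fastp, STAR 2.5, HTSeq 0.6.1 and mm10, and the annotation is not given in the sources used here. Cells needed 500 or more detected genes and a mitochondrial share of 10% or less, and doublets marked by Scrublet (scanpy 1.11.5; 2.29%, 1.96% and 2.62% of cells) were left out. Total counts per library were 92474476, 147854476 and 150954701 UMIs. Over 10% mitochondrial UMIs were found in 7.34%, 14.5% and 5.30% of barcodes. UMIs were summed per class and divided by the class total (CPM). Cells are not replicates, so with 1 library per group no test was run. Intervals are exact Poisson, Clopper-Pearson or, for ratios, conditional binomial ones without the pseudocount of 1 CPM. All intervals, and the upper limits for a count of 0 (3 counts), cover counting error only. Those of levels and of their ratios leave out the spread between cells. Cells were thinned to 5000 UMIs with random seed 1. A call means at least 1.5-fold and a mean of at least 10 CPM; the calling step was checked on simulated counts. Genes named are Spp1, Cd44, members of 13 fixed lists and the 10 genes most correlated with Spp1 or Cd44 in a class, at a mean of at least 50 CPM and without mitochondrial and ribosomal protein genes. The members and lists were chosen with earlier results of these data known. Added after the values were seen were the ratios without the highest cell, the depth window of 15000 to 30000 UMIs, and the Spp1 comparison and likeness list in fibroblasts and, for the comparison, macrophages. Promoter sequences are from RefSeq (GRCm38.p6). Alternatives covered doublets, cell filters, TMM scaling (edgeR 4.0.16), thinning depth, class rules, carried RNA, pseudocount and call limits. One of the genes most like Spp1 in fibroblasts is not reported here.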

Additional observations from a re-analysis of the deposited data

Results flagged for a closer look

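Spp1 was also read in cells outside the described classes. The 30 cells of the endothelial gate in CNC_AngII held 409 CPM, of which 1 cell gave 50% of the UMIs, and fibroblast markers stood at 1338 CPM there. Cells in no class held 247 CPM in SHF_AngII and 439.6 CPM in CNC_AngII, above the 154 CPM of the same cells in SHF_Baseline, and the smooth muscle and fibroblast markers were both present in them. Cd44 in the CNC_AngII cells of no class stood at 61.2 CPM, against 53.1 CPM in those of SHF_Baseline.

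The log2 ratio of Cd44 between CNC_AngII and SHF_AngII had opposite signs in smooth muscle cells (0.30) and in fibroblasts (−0.15). With 1 library per group the difference was not tested.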

How the results depend on the processing

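Ratios are log2 and counting depth limits all of them; CNC_AngII and SHF_AngII smooth muscle had similar medians (13450 and 13336 UMIs). Of 64 values of Spp1 ratios under other settings, 34 stayed within counting error, 29 moved further and 1 reversed. For Cd44, 51 stayed, 13 moved and none of the 64 counts as reversed. A ratio could count as reversed only where its interval left out 0. The Cd44 ratio of SHF_AngII over baseline in smooth muscle changed sign, but its interval (−0.04 to 0.17) held 0. The cause of these changes was not tested. Before 1 CPM is added, TMM scaling raises ratios against baseline by 0.18 in smooth muscle and 0.20 in fibroblasts; the Spp1 ratio in smooth muscle, with a baseline level under 1 CPM, went from 6.55 to 6.65. No paired analysis was possible because each group has 1 library.

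For Spp1, CNC over SHF in smooth muscle gave 0.61 with stricter cells (2000 or more genes, mitochondrial share of 5% or less), 1.20 as the mean of per-cell CPM, 1.16 in thinned cells, 1.003 with classes set on thinned cells, 0.87 with a pseudocount of 10 and 1.15 without the highest cells. SHF_AngII over baseline in smooth muscle gave 5.83 (per-cell mean), 5.80 (thinned), 5.46 (classes on thinned cells) and 3.86 (pseudocount 10). CNC over SHF in fibroblasts gave 1.21 with doublets kept, 1.06 (stricter cells), 1.31 (per-cell mean), 1.36 (thinned), 1.44 (classes on thinned cells) and 1.44 (stricter classes). SHF_AngII over baseline in fibroblasts gave 3.11 (stricter cells), 2.24 (TMM), 2.76 (per-cell mean), 2.71 (thinned), 2.42 (classes on thinned cells), 1.78 (stricter classes), 1.90 (pseudocount 10) and 2.36 (without the highest cells). Macrophages over smooth muscle in CNC_AngII reversed to −0.13 with stricter cells and otherwise gave 0.53 (doublets kept), 1.29 (per-cell mean), 1.26 (thinned), 1.42 (classes on thinned cells) and 0.54 (stricter classes).

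For Cd44, CNC over SHF in smooth muscle gave 0.21 (per-cell mean) and 0.14 (classes on thinned cells), and in fibroblasts −0.31 (per-cell mean). SHF_AngII over baseline gave −0.35 (stricter cells), 0.24 (TMM) and −0.066 (thinned) in smooth muscle, and 0.48 (TMM) and 0.19 (thinned) in fibroblasts. Macrophages over smooth muscle gave 0.76 (stricter cells), 1.40 (per-cell mean), 1.31 (thinned), 1.31 (classes on thinned cells) and 0.97 (pseudocount 10). The CNC share of smooth muscle cells with a Cd44 UMI was 1.09-fold the SHF share at 2000 UMIs and 1.07-fold with another draw. At 8000 UMIs the highest 1% of cells held 45.2% of the Spp1 of CNC_AngII smooth muscle, 55.9% of that of CNC_AngII fibroblasts and 12.5% of the Cd44 of SHF_AngII smooth muscle.

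Listed genes past 1.5-fold numbered 16 for CNC over SHF in smooth muscle (6 at a mean of 50 CPM), 28 for SHF_AngII over baseline there (18 at 50 CPM and 11 at 2-fold), 13 for CNC over SHF in fibroblasts (8 and 5) and 55 for SHF_AngII over baseline in fibroblasts (34 and 33). The lists hold 125 genes, not all of them measured. Of all measured genes, 0.938% were 1.5-fold higher and 1.01% lower for CNC over SHF in smooth muscle. For SHF_AngII over baseline there, the shares were 8.76% and 15.6%. In fibroblasts they were 1.24% and 1.06% for CNC over SHF, and 10.5% and 27.6% for SHF_AngII over baseline.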
